A study of Arabidopsis thaliana with 6 samples.

Results

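Senescence regulators and markers of Arabidopsis thaliana were followed in siliques, the seed pods of the plant, on arrays of young and old pods. The set holds 10 genes, each with 1 probe set, of the 22746 probe sets on the array that are not controls. WRKY53, WRKY6, WRKY22, SAG101, SAG29 and YLS5 were taken by their symbols in the platform annotation. The other 4 probe sets carry no gene in that annotation and were assigned, when the set was chosen, to SAG13 (AT2G29350), SEN1 (AT4G35770), NAP (AT1G69490) and ORE1 (AT5G39610). The RefSeq gene table lists SAG13, SEN1 and NAP under those loci and gives AT5G39610 as NAC6 with ORE1 among its synonyms, but it does not link a locus to a probe set.

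Leaf senescence is a programmed last stage in which a plant organ dismantles its chloroplasts and exports nutrients before it dies, and pod walls pass through a like stage as seeds mature. Transcription factors of the WRKY and NAC families act early in this programme, WRKY proteins through a short DNA element called the W-box. The senescence-associated genes (SAG, SEN and YLS) were named for transcripts that accumulate in ageing or yellowing leaves and serve as markers of the process.

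The series compared 3 arrays of young pods with 3 arrays of old pods. All plants were the accession Col-1, grown on compost in a glasshouse at 19 °C under continuous light, with no mutant and no treatment in the labels. One tissue label, covering mature and senescing siliques, and 1 stage label, the shattering of the first pod, are shared by all 6 samples, so the titles alone separate young from old. The labels do not say how pod age was set or that replicates came from separate plants, so the p-values reflect the scatter among these arrays, which may be technical. The median signal was 49.5 to 52.9 on the young arrays and 39.5 to 49.6 on the old arrays. Of 10 markers of the pod wall and valve margin, 4 had a named probe set and all of these were measured: SPT and ALC, transcription factors of the valve margin, CYP78A9 and ADPG1. ADPG1, a polygalacturonase of the dehiscence zone, had signals of 45.1 to 102.2 in young pods and of 901.1 to 1248.2 in old pods, a 15.7-fold rise (limma adjusted p = 0.000387). CYP78A9, a cytochrome P450 of fruit growth, had 33.9 to 48.0 in young pods and 144.2 to 656.0 in old pods, a 7.16-fold rise (limma adjusted p = 0.00618). SPT and ALC did not pass, at log2 fold changes of 0.27 and -0.24. The summed signal of the 4 was 626.3 to 1013 in young pods and 1647 to 2392 in old pods, none of them was at 0, and their part in the results on senescence genes was not tested. The 3 prime to 5 prime ratio of the actin control, a reading of RNA integrity, was 3.05 to 3.19 on the log2 scale in young pods and 3.40 to 3.79 in old pods. The groups overlapped for the same ratio of the GAPDH and ubiquitin controls. The part of RNA integrity in the results below was not tested.

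Of the 10 genes, 8 rose in old pods, none fell, and 2 did not pass the test. The risers were the regulators WRKY53, WRKY6, NAP and ORE1, the signalling protein gene SAG101, and the markers SAG13, SEN1 and YLS5. WRKY22 and SAG29 did not pass. All old arrays lay above all young arrays for the same 8 genes. The comparison was a limma fit of log2 signals over 14277 probe sets, with an adjusted p threshold of 0.05. In that comparison 9.68% of the tested probe sets were higher in old pods and 12.3% lower. Over all tested probe sets, 17.9% had every old array above every young array. The median log2 fold change of the 10 genes was 1.47, against -0.08 over all tested probe sets. The genes were chosen with earlier results of these data known, so these counts and medians are a description. To be tested, a probe set had to exceed the 40th percentile of the array on at least 3 arrays. All 10 genes met this, but WRKY6, ORE1 and SAG101 met it through the old arrays alone, so these 3 entered through the group in which they were high and their calls support nothing by their number. Their young level has only a bound, and their folds are given as "at least", from the mean of the old arrays against the percentile. The words "at least" refer to the young level alone and do not allow for the scatter of the old arrays. The adjusted p beside any "at least" fold belongs to the fit of the signals themselves, not to the bound. With these 3 at their bounds the median was 1.36. Without any filter 8 of the 10 genes again passed as higher, where 5.84% of all 22746 probe sets did. A pod holds several tissues, and a change in the share of a cell type cannot be told apart here from a change in RNA per cell.

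**Figure D1:**
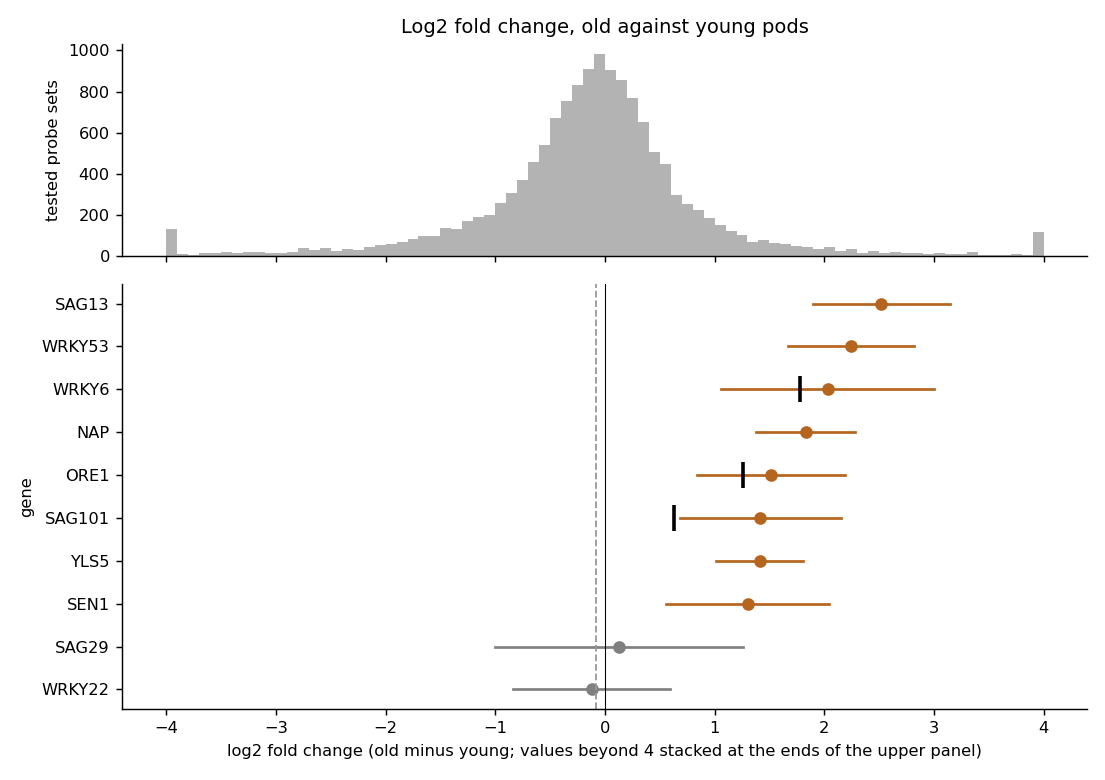
The upper panel counts the tested probe sets by log2 fold change, old minus young pods. The lower panel gives each senescence gene with its 95% confidence interval, brown where the adjusted p was under 0.05 and grey where not, with a black bar at the bound of genes under the 40th percentile in young pods; the dashed line is the median of all tested probe sets. SAG13 lies highest at 2.52, and the intervals of SAG29 and WRKY22 span 0.

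WRKY53, whose protein switches on other senescence genes in ageing leaves, gave signals of 82.6, 65.1 and 74.5 in young pods and 259.7, 343.9 and 474.3 in old pods. The old arrays spread more than the young ones, and the lowest old array was still well above the highest young one. The rise was 4.73-fold (log2 change 2.24 with an SE of 0.249, 3 arrays in each group, limma adjusted p = 0.00118). WRKY6, which acts in senescence and defence, gave 33.0, 29.8 and 23.9 in young pods, all under the percentile, and 57.9, 161.9 and 171.1 in old pods. Old replicate 1 stood well under the other two old arrays. The rise of WRKY6 was at least 3.42-fold (limma adjusted p = 0.0128), and its log2 spread in old pods, an SD of 0.88 against 0.24 in young pods, was the widest of the genes that passed. Without old replicate 2 or old replicate 3 the WRKY6 call ended (limma adjusted p = 0.0614 and 0.0518).

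WRKY22, a WRKY factor linked to senescence of darkened leaves, stayed close to the percentile in both groups. Its signals were 47.0, 32.4 and 35.3 in young pods and 44.5, 33.0 and 28.4 in old pods. The groups overlapped, at a log2 fold change of -0.12 with a 95% confidence interval from -0.84 to 0.59 (limma adjusted p = 0.815). The log2 change of WRKY53 lies outside this interval, but whether the changes of these genes differ was not tested. The 40th percentile was 32.5 to 36.5 on the young arrays and 24.3 to 34.5 on the old arrays, and old replicates 2 and 3, at 25.2 and 24.3, had lower percentiles than any young array. The reference holds 67 genes with a WRKY number as symbol, of which 6 had a named probe set and 5 of those were bright enough to test. Of these 5, WRKY53, WRKY6 and WRKY47 rose and none fell, where 9.68% of all tested probe sets rose. WRKY6 and WRKY47 entered the test through the old arrays alone, so the count is a description. WRKY47 gave 23.6, 29.8 and 25.7 in young pods and 98.8, 123.9 and 120.6 in old pods. It rose at least 3.33-fold (limma adjusted p = 0.000965). WRKY20 was at a log2 fold change of 0.11 (limma adjusted p = 0.706), and WRKY42, at signals of 2.7 to 7.7, was too dim to be tested.

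**Figure D2:**
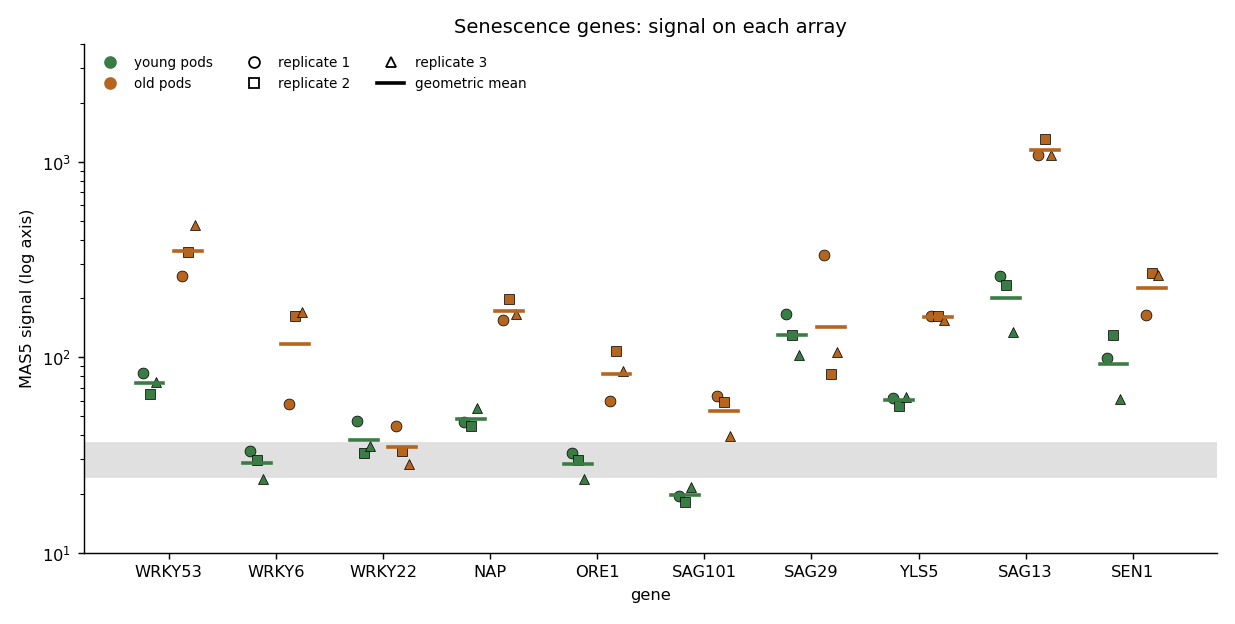
Signal of the 10 senescence genes on each array on a log axis, young pods in green and old pods in brown, with the replicate number as symbol and the geometric mean of 3 arrays as a bar. The grey band spans the 40th percentiles of the 6 arrays, 24.3 to 36.5; the old arrays stand clear of the young ones for every gene but WRKY22 and SAG29.

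NAP, a NAC factor that promotes senescence of leaves and has been studied in pods as well, was among the most even risers. Its signals were 46.5, 44.7 and 54.8 in young pods and 154.7, 198.6 and 166.4 in old pods. Every array was above the percentile and the SD on the log2 scale was 0.16 in young and 0.19 in old pods. The rise was 3.55-fold (log2 change 1.83 with an SE of 0.196, 3 arrays in each group, limma adjusted p = 0.00102). ORE1, the NAC factor that drives age-dependent cell death in leaves under ethylene signalling and the microRNA miR164, had signals of 32.5, 29.9 and 23.8 in young pods and 59.4, 107.2 and 85.4 in old pods, with the young arrays all under the percentile. ORE1 rose at least 2.39-fold (limma adjusted p = 0.00948). Of 81 genes with a NAC number as symbol, NAC014 was the only one that the annotation paired with a probe set, at a log2 fold change of 0.18 with overlapping groups (limma adjusted p = 0.775).

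Genes around these regulators were taken from lists of senescence factors, senescence signalling, further markers, targets of ORE1 and NAP, the EDS1 family and the DJ-1 family. Of the 100 genes in those lists, 6 had a named probe set, SAG29 among them, so most of the pathway was not analysed here. EIN3, the ethylene-response factor upstream of ORE1 and NAP in leaves, gave 245.6, 205.5 and 174.3 in young pods and 309.2, 303.5 and 311.7 in old pods. Its groups did not overlap and the old arrays were nearly equal. The log2 fold change of EIN3 was 0.58 with a 95% confidence interval from 0.15 to 1.01, and it did not pass (limma adjusted p = 0.0608). EIN3 passed with each array centred on its median, with a batch term for replicate 1, in replicates 2 and 3 alone, and without young replicate 1 (limma adjusted p = 0.0403, 0.0416, 0.0482 and 0.0438). It did not pass in the other 14 of 18 settings, such as without young replicate 3 (limma adjusted p = 0.182). EEL, a bZIP factor of late seed development, was placed in the list of senescence factors and did not pass at 0.94 (limma adjusted p = 0.523). The locus AT3G13672, which has SINA2 as a synonym in the reference and whose place in the list of ORE1 targets was not checked against a source, gave 39.9, 46.6 and 30.9 in young pods and 203.2, 165.8 and 130.8 in old pods. It rose 4.25-fold (SE 0.25 on the log2 scale, limma adjusted p = 0.00157).

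SAG101 encodes a lipase-like protein that works with EDS1 in defence and was first described as an acyl hydrolase of ageing leaves. Its signals were 19.6, 18.2 and 21.8 in young pods and 63.3, 59.3 and 39.5 in old pods. All young signals were under the percentile, and old replicate 3 was lower than the other old arrays. The rise was at least 1.55-fold, the smallest bound or fold given for the 8 genes. The fit of the signals themselves gave 2.67-fold (limma adjusted p = 0.017). The call ended without young replicate 2 and without old replicate 2 (limma adjusted p = 0.0585 and 0.0811), and when low signals were set to the percentile (limma adjusted p = 0.0901). Of 8 genes listed as the EDS1 family and its partners, only the locus AT3G48080 had a named probe set, and the reference gives it no symbol. Its signals were 21.6, 8.7 and 10.8 in young pods and 87.3, 112.4 and 120.3 in old pods. All its young signals were under the percentile, so it entered the test through the old arrays alone. It rose at least 3.09-fold (limma adjusted p = 0.002), and a near-identical neighbouring gene may share its probes.

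SAG13, a short-chain dehydrogenase gene used as a marker of early leaf senescence, had the largest rise of the 10 genes. Its signals were 258.9, 233.3 and 134.2 in young pods and 1082.0, 1307.3 and 1079.2 in old pods. The young arrays varied more than the old ones, with SDs of 0.51 and 0.16 on the log2 scale. The rise was 5.73-fold (log2 change 2.52 with an SE of 0.27, 3 arrays in each group, limma adjusted p = 0.00102), above 98.0% of the log2 fold changes of all tested probe sets. Related dehydrogenase genes lie beside SAG13 on the chromosome, and whether its probes tell them apart was not tested.

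YLS5, a member of the DJ-1 family named for its transcript in yellow leaves, was the most even riser. Its signals were 61.9, 56.0 and 62.9 in young pods and 162.4, 162.5 and 155.8 in old pods. The old arrays differed by an SD of 0.03 on the log2 scale and the young arrays by 0.09. YLS5 rose 2.66-fold (SE 0.171, limma adjusted p = 0.00165). DJ1D, the only one of 5 other DJ-1 genes with a named probe set, had 208.7, 215.0 and 167.8 in young pods against 165.8, 154.8 and 155.8 in old pods. Its groups did not overlap, but at a log2 fold change of -0.30 it did not pass (limma adjusted p = 0.264).

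SEN1, also known as DIN1 for its induction in darkness, gave 99.1, 129.2 and 61.1 in young pods and 164.9, 269.9 and 263.9 in old pods. The highest young array and the lowest old array were closer for SEN1 than for the other genes that passed with measured young levels. It rose 2.47-fold (log2 change 1.30 with an SE of 0.321, 3 arrays in each group, limma adjusted p = 0.0248), the highest adjusted p of the 8. Leaving out young replicate 3 ended the call (limma adjusted p = 0.0623), as did leaving out old replicate 2 (0.0936) or old replicate 3 (0.0835).

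SAG29 is the sugar transporter SWEET15, known from senescing leaves and from the seed coat and endosperm, where it helps to feed the embryo. It gave 166.6, 129.7 and 102.7 in young pods and 332.3, 81.9 and 106.6 in old pods. Old replicate 1 was the highest of all arrays and old replicate 2 the lowest, so the groups overlapped. The log2 fold change was 0.13 with a 95% confidence interval from -1.005 to 1.26 (limma adjusted p = 0.88). Without old replicate 1 it was -0.48 (limma adjusted p = 0.222). The old SD of SAG29, 1.07 on the log2 scale, was the widest of the 10 genes.

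Seed transcripts also stood apart on old replicate 1. OLEO3, an oil body protein gene, was at 2218.5 there and at 178.7 and 262.6 on the other old arrays. In young pods OLEO3 was at 1099.3, 536.4 and 158.4, with replicate 1 also the highest. It did not pass, at a log2 fold change of 0.05 (limma adjusted p = 0.979). The vicilin-like storage protein gene PAP85 was at 3700.8 on old replicate 1, against 214.9 and 210.1. PAP85 was at 25.9, 14.9 and 15.8 in young pods, all under the percentile, so it entered the test through the old arrays alone. Each of its 3 old signals was above each young one. The mean of the old arrays, raised by old replicate 1, gave a rise of at least 16.1-fold (limma adjusted p = 0.0122). PAP85 did not pass in an ordinary two-sample test (adjusted p = 0.11). The fitted log2 change of PAP85 was 4.91, and 3.54, 5.59 and 5.61 without old replicate 1, 2 and 3. EEL was at 338.9 against 20.8 and 34.8. The seed coat genes BAN and DELTA-VPE were at 46.8 and 181.2 on old replicate 1 and at 8.2 to 41.3 on the other old arrays, all far under their young signals of 1289.1 to 3758.4. Of 21 listed seed and seed coat markers these 4, OLEO3, PAP85, BAN and DELTA-VPE, had a named probe set. Their summed signal ran from 4284 to 6647 in young pods and from 443.1 to 6147 in old pods, where the top value was old replicate 1, and none of the 4 was at 0. The part of seed material in the SAG29 values was not tested. Of 5 pollen and petal markers only TUA1 had a named probe set, at 89.6 to 123.7 in young and 162.7 to 274.7 in old pods. TUA1 was at a log2 fold change of 0.88 (limma adjusted p = 0.0435, or 0.0642 where the replicate number was a block). It lost its call in 10 of 18 other settings. Its part in the results was not tested.

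**Figure D3:**
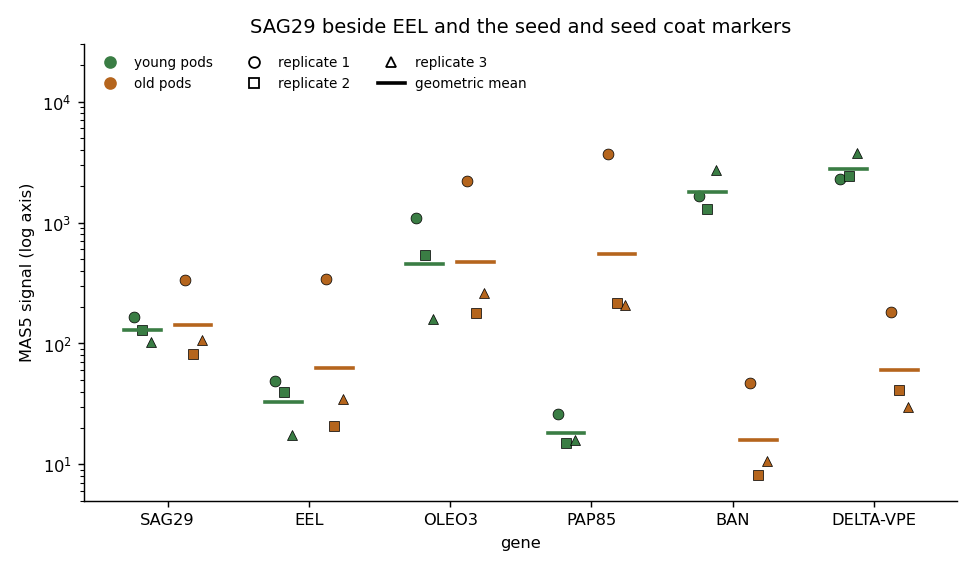
Signal per array on a log axis for SAG29, the seed factor gene EEL, the seed genes OLEO3 and PAP85, and the seed coat genes BAN and DELTA-VPE, young pods in green and old pods in brown, with the geometric mean as a bar. For each of the 6 genes old replicate 1, the brown circle, is the highest old array.

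Replicate 1 arrays also stood apart in the spiked hybridisation controls, at 0.93 and 1.13 on the log2 scale above the mean of the 6 arrays, with the other arrays 0.23 to 0.80 under it. The senescence genes were therefore compared within same-numbered arrays. Deviations from the group means in young and old arrays had r of 0.286, 0.113 and 0.119 for replicates 1, 2 and 3. A shift of the replicate 1 arrays alone would also make the r of replicates 2 and 3 positive. The r of unlike-numbered arrays is not given, so these values do not show that replicates 2 and 3 are pairs. The median difference of the 10 genes was 1.19 in the replicate 1 pair, 1.77 in the replicate 2 pair and 1.72 in the replicate 3 pair, on the log2 scale. WRKY6 differed most between the pairs, at 0.81, 2.44 and 2.84. ORE1 differed by 0.87 for replicate 1 and by 1.84 in both other pairs, and SEN1 at 0.74, 1.06 and 2.11. NAP, at 1.73, 2.15 and 1.60, and YLS5, at 1.39, 1.54 and 1.31, varied least among the risers. SAG101 went the other way, with 1.69, 1.70 and 0.86. SAG29 changed sign, at 1.00, -0.66 and 0.05. Among the 8 risers, old replicate 1 was the lowest old array for WRKY53, WRKY6, NAP, ORE1 and SEN1, against 51.5% of all probe sets that rose. Whether the pairs differ for any gene was not tested. In replicates 2 and 3 alone all 8 rises passed, where 11.6% of tested probe sets were called higher, with log2 fold changes from 1.28 for SAG101 to 2.75 for SAG13 and limma adjusted p up to 0.0289.

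**Figure D4:**
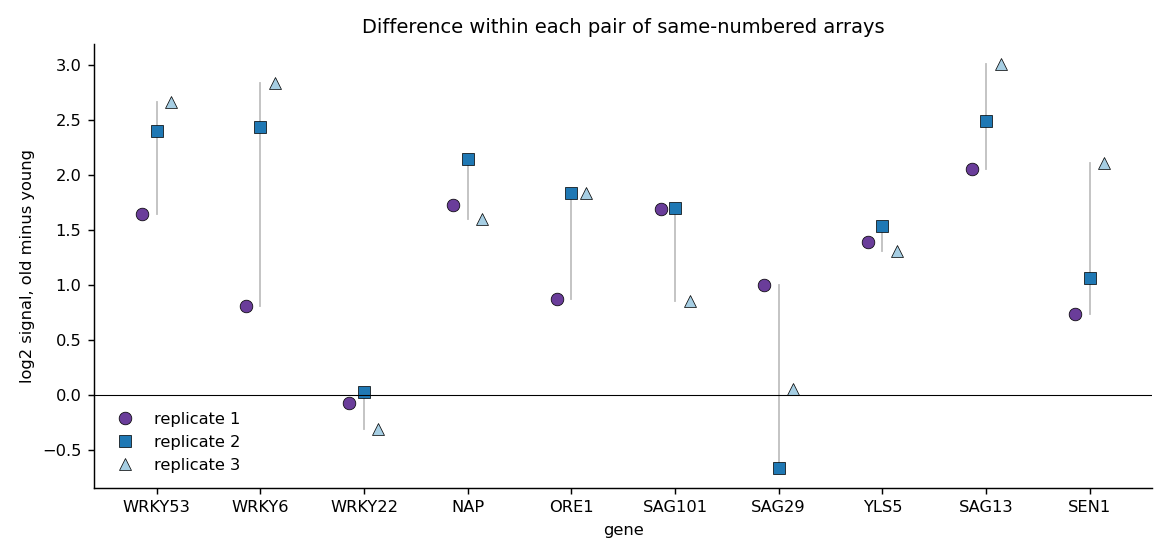
Difference in log2 signal, old minus young, within each pair of arrays with the same replicate number, for the 10 senescence genes; circles are replicate 1, squares replicate 2 and triangles replicate 3. WRKY6 spans 0.81 to 2.84, YLS5 spans 1.31 to 1.54, and SAG29 and WRKY22 have points on both sides of 0.

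Genes whose pattern over the 6 arrays was most like that of 3 of the risers were sought among the 1104 other tested probe sets that name 1 gene with a symbol. The measure was Pearson's r of log2 signals, given as a description, since the 2 groups of arrays lie apart and most of each r is their difference. Closest to WRKY53 were MAP1A, a methionine aminopeptidase, at 0.996, and the methyltransferase gene CCOAMT (AT1G67980) at 0.99. MAP1A rose only 1.74-fold (limma adjusted p = 0.0143). CCOAMT, under the percentile in young pods and so tested through the old arrays alone, rose at least 7.31-fold. Closest to NAP were IDH-VI, an isocitrate dehydrogenase, and SBT3.5, a subtilisin-like protease, both at 0.993. IDH-VI rose 1.89-fold and SBT3.5 17.8-fold (limma adjusted p = 0.00917 and 8.83e-05), so likeness in pattern did not mean likeness in size. SEN1 was closest to DELTA-OAT, the ornithine aminotransferase of arginine breakdown, at 0.979, and to the beta-glucosidase BGLU45 at 0.968. The aminotransferase DELTA-OAT gave 205.8, 199.6 and 128.7 in young pods and 322.7, 539.4 and 561.7 in old pods, with old replicate 1 lowest of the old arrays as for SEN1. It rose 2.64-fold and BGLU45 2.75-fold (limma adjusted p = 0.012 and 0.00977).

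After quantile normalization or with each array centred on its median, all 8 rises passed again, where 10.3% and 11.5% of tested probe sets were called higher. Scaled on the hybridisation controls, none of the 10 genes passed in limma, against 1.62% of tested probe sets called higher, while 4 of them had an unadjusted p under 0.05. The log2 fold changes of the 8 risers were still 1.23 to 2.45, with limma adjusted p from 0.134 to 0.981. The SE of WRKY53 on the log2 scale went from 0.249 to 0.912 under this scaling, which shifts the replicate 1 arrays of both groups against the others. The ordinary two-sample test called 5 of the 10 genes higher, against 4.25% of tested probe sets, and WRKY6, ORE1 and SEN1 did not pass there (adjusted p = 0.0937, 0.0543 and 0.12). WRKY53, NAP, YLS5 and SAG13 passed in every one of the 18 other settings except the scaling on hybridisation controls.

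**Figure D5:**
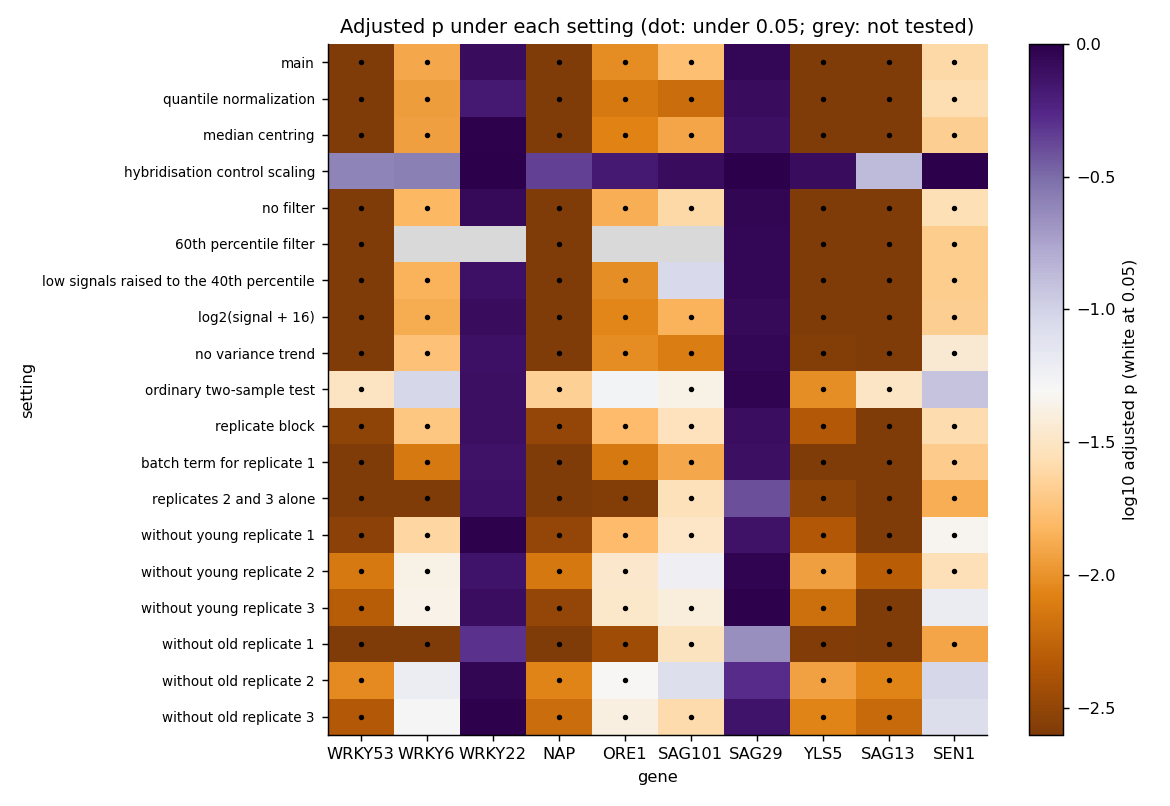
Adjusted p of the 10 senescence genes (columns) under the main setting and 18 others (rows), on a log10 colour scale that is white at 0.05; a dot marks values under 0.05 and grey a gene that was not tested. WRKY53, NAP, YLS5 and SAG13 carry dots in all rows but that of the hybridisation control scaling, and SAG29 and WRKY22 carry none.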

How the data were processed

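RNA of 6 pod samples was hybridised to Affymetrix ATH1 arrays. The deposited values are intensities, linear MAS5 signals with 1 per probe set, per the submitters' processing notes, which give no version. The trimmed mean was about 100.0 on every array, so a change common to most transcripts would not show. The number of arrays limits the precision.

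Names came from the platform annotation and the RefSeq table of assembly TAIR10.1. Of 22746 probe sets, 13513 name 1 gene, 503 several and 8730 none. For a gene with several probe sets the brightest was used.

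Signals under 0.1 were set to 0.1 and taken as log2. The age groups were fitted in R 4.3.3 with limma 3.58.1 (lmFit, eBayes with a variance trend). Tests were two-sided, with Benjamini-Hochberg adjustment over the 14277 probe sets tested. The fit was also run on simulated data with independent arrays and no shift of replicate 1, so that run does not cover such a shift. The correlations of the deviations of same-numbered arrays were all above 0.1, which does not settle that the numbers mark pairs. A fit with the replicate as a block was an alternative. Others were scaling, filter, floor, variance model, replicate 1 as a batch and leaving out each array.

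All 10 genes were named whatever their values, with at most 4 called genes from a list (where none was called, the 2 brightest), and the 2 closest patterns of 3 genes. WRKY20, WRKY42, NAC014 and the tissue markers lie outside this rule. The genes and lists were chosen with earlier results of these data known.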

Additional observations from a re-analysis of the deposited data

How the results depend on the processing

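Under 18 other settings the count of the 10 senescence genes that rose was 0 with hybridisation control scaling, 5 with the 60th percentile filter, which left WRKY6, ORE1, SAG101 and WRKY22 untested, 5 in the ordinary two-sample test, and 5 to 8 when 1 array was left out (5 without old replicate 2, where WRKY6, SAG101 and SEN1 did not pass). None fell in any setting. With the replicate number as a block it was 8, and 3480 probe sets passed in all; of the genes named here the block ended the call of TUA1 alone. Over all probe sets 3145 passed, 1382 higher and 1763 lower, or 43.9% higher; median centring turned this balance, with 1644 higher and 1513 lower, or 52.1% higher. Replicates 2 and 3 alone gave 3936. Hybridisation control scaling gave 607 (232 higher, 375 lower), of which 570 were among the 3145, and the ordinary two-sample test 1360 (607 higher, 753 lower). Leaving out 1 array gave 1736 to 3602, with 720 to 1473 higher and 932 to 2129 lower: 1736 without old replicate 2, 1812 without young replicate 2, 1975 without young replicate 3 and 2047 without old replicate 3. The hybridisation control scaling shifts the replicate 1 arrays inside each group, and the other causes were not tested.

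Some log2 fold changes that did not pass changed sign. WRKY22 was at 0.17 after quantile normalization, which shifted the log2 fold changes of all tested probe sets by a median of 0.1. WRKY22 ranged from -0.30 to 0.036 when 1 array was left out (0.036 without young replicate 1, 0.022 without old replicate 3). SAG29 was at -0.30 in replicates 2 and 3 alone and ranged from -0.48 without old replicate 1 to 0.53 without old replicate 2 (-0.044 without young replicate 3). OLEO3 was at -0.040 after quantile normalization, -0.016 with hybridisation control scaling and -0.43 in replicates 2 and 3 alone. It ranged from -1.07 without old replicate 1 to 0.75 without old replicate 2 (-0.71 without young replicate 3). ALC was at 0.10 in replicates 2 and 3 alone, and EEL, at 0.94 with all arrays, ranged from -0.27 without old replicate 1 to 1.74 without old replicate 2. WRKY6, WRKY22, ORE1 and SAG101 had young signals near or under the 40th percentile, and the part of background signal in their values was not tested. SEN1, above the percentile on every array, lost its call in 5 of the 18 settings.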
